A study of Mus musculus with 12 samples.

Results

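Threonine and glycine catabolism was followed through 7 mouse genes, chosen by the enzymes they encode: the threonine breakdown genes Tdh and Gcat, the glycine cleavage genes Gldc, Amt and Gcsh, and the serine hydroxymethyltransferase genes Shmt1 and Shmt2. They are 7 of 23496 genes in the deposited table, and all 7 were among the 12329 genes with at least 1 FPKM (sequenced fragments scaled to transcript length and library size) in at least 4 libraries, which were tested. RNA-seq came from mouse embryonic stem cells, here ESCs, which are pluripotent cells in culture, in 12 libraries of 3 groups with 4 each. Cells with the genotype Tfcp2l1 knockout, which lack a transcription factor of the CP2 and grainyhead family by their label, were grown in 2i medium. The wild-type cells were grown in the same 2i medium or in medium with fetal bovine serum (FBS). The 2i medium was a serum-free base with N2 and B27 supplements, 3 µM CHIR99021 to inhibit GSK3, 1 µM PD0325901 to inhibit MEK, and LIF (1000 units/mL), a cytokine that sustains ESCs. The FBS medium was high glucose DMEM with 15% FBS, added nonessential amino acids and LIF at 1000 units/mL. The media therefore differ in base, amino acid supplement, serum and inhibitors at once, and these cannot be told apart. The parental line and the number of knockout clones are not given in the sources used here, nor is it said whether a group's 4 libraries stem from different cultures. The p-values thus reflect only how far these samples spread, which may be technical.

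In mitochondria, threonine dehydrogenase (Tdh) oxidises threonine, and glycine C-acetyltransferase (Gcat) splits the product into glycine and acetyl-CoA. The glycine cleavage system then breaks glycine down: the decarboxylase Gldc (P-protein) removes carbon dioxide, the lipoate-bearing carrier Gcsh (H-protein) holds the remaining aminomethyl group, and Amt (T-protein) passes its carbon to tetrahydrofolate, while Dld re-oxidises the carrier. Shmt1 in the cytosol and Shmt2 mainly in mitochondria interconvert serine and glycine with the same folate. Mouse ESCs are known for high Tdh and for their need of threonine as a source of one-carbon units.

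The label checks were as follows. Tfcp2l1 stood at 76.08, 72.01, 82.95 and 84.66 FPKM in the knockout, so its transcript was lower but present, and at 112.3 to 143.2 FPKM in wild type in 2i (log2 change -0.73, SE 0.10, limma adjusted p = 0.000119) and 25.8 to 37.09 FPKM in wild type in FBS. A transcript total does not show a lost exon, so this value alone cannot check the genotype. All 10 ESC markers examined were expressed, with a summed level of 3961 to 4150 FPKM in the knockout, 4266 to 4964 in wild type in 2i and 3267 to 4293 in FBS. Of the 10, 0 passed as higher and 6 as lower in the knockout (median log2 change -0.21), and 7 passed as higher and 1 as lower in 2i than in FBS (median 0.42). Fibroblast markers, genes of the feeder cells on which ESCs are often grown, differed between the groups. Their 18 genes summed to 385.4 to 653.4 FPKM in the knockout, 207.8 to 332.4 in wild type in 2i and 90.93 to 126.5 in FBS. None was under 0.1 FPKM in all libraries of a group. In the knockout, 16 of 18 passed as higher than in wild type in 2i and none as lower. Between the media, 11 passed as higher in 2i than in FBS and 3 as lower. Trophoblast markers summed to 51.22 to 56.1 FPKM in the knockout, 32.74 to 46.98 in wild type in 2i and 156.4 to 181.7 in FBS. Of 7 tested, 4 passed as higher and 2 as lower in the knockout. Among the higher, Hand1 averaged 0.5002 FPKM in the knockout and 0.2086 in wild type in 2i, and reached the filter only through FBS (12.31). Cdx2 and Gata3 averaged 0.6659 and 0.7423 FPKM in wild type in 2i, so the filter partly shapes this count. In 2i, 0 passed as higher and 6 as lower than in FBS. Neural markers summed to 26.06 to 33 FPKM in the knockout, 9.929 to 25.51 in wild type in 2i and 36.5 to 60.31 in FBS, and 3 of 3 tested passed as higher in the knockout. These levels differ between the groups compared below, and their part in those differences was not tested. In bulk RNA, more cells of a type and more RNA per cell cannot be told apart. Total FPKM ranged from 347772 to 358340 over the libraries, and the read depth is unknown.

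In the knockout, Amt and Gcat fell, Gldc and Shmt2 rose, and Tdh, Gcsh and Shmt1 did not pass the test. Of all genes tested, 45.3% were called in this comparison, 24% higher and 21.4% lower, and 4 of the 7 genes were called, 2 in each direction. The median log2 change of the 7 was -0.09, beside 0.01 over all genes tested. Called means an adjusted p under 0.05 from limma, a linear model with moderated variance fitted to log2(FPKM + 1) of all genes tested. All log2 changes are on that scale, and the adjustment (Benjamini-Hochberg, two-sided) runs over all 12329 genes. For each of the 4 called genes, every knockout library lay on the same side of every wild-type library in 2i, as was so for 44.1% of all genes tested.

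**Figure D1:**
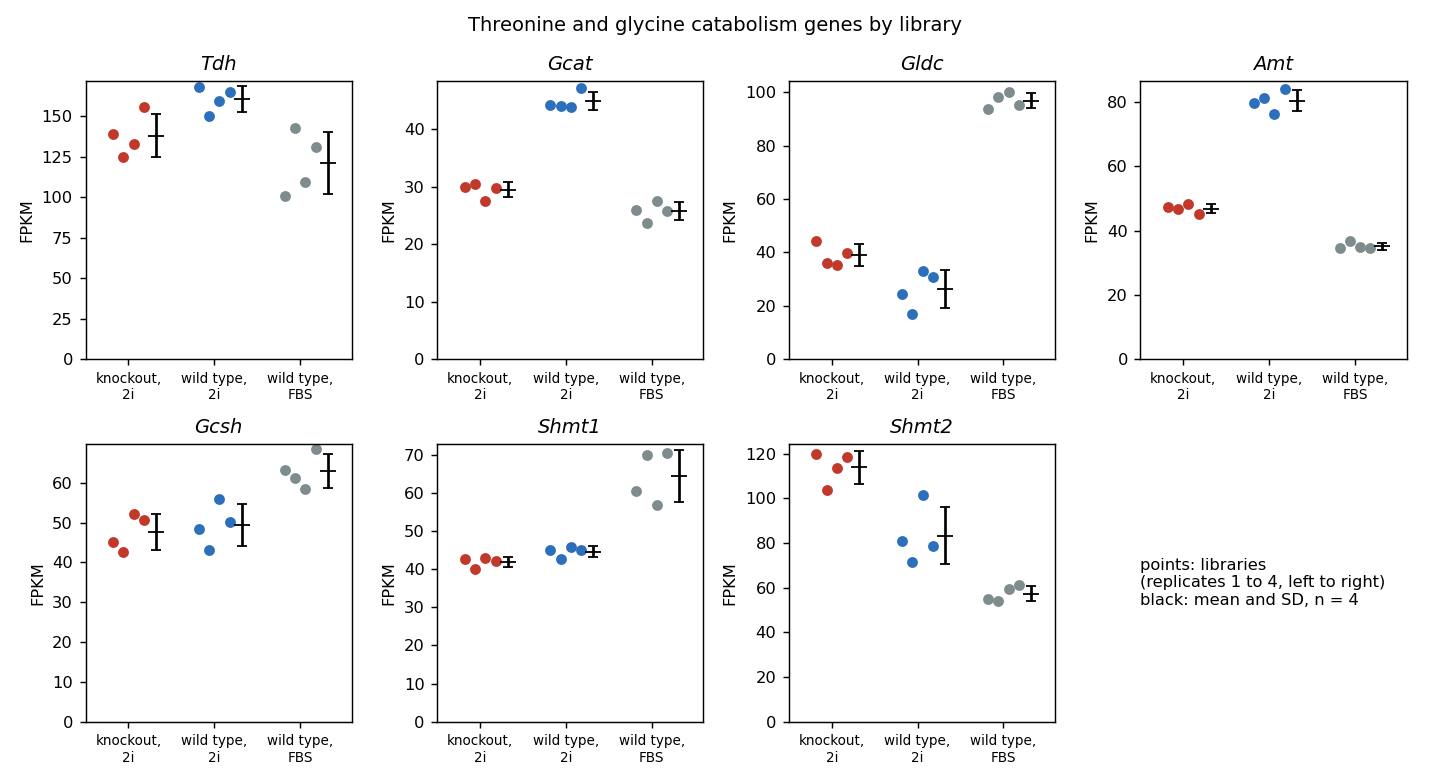
FPKM of the 7 genes in each library, on linear axes from 0, with knockout in 2i (red), wild type in 2i (blue) and wild type in FBS (grey); points are libraries in replicate order and black marks are means with SD (n = 4). Amt and Gcat are highest in wild type in 2i, Gldc is highest in FBS and Shmt2 is highest in the knockout.

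The promoters of the 4 genes called in the knockout are shown because Gcat and Amt fell and Gldc and Shmt2 rose there. Sequences are from RefSeq (GRCm38.p6), from 250 bases before to 50 bases after the gene start, and 6 of the 7 genes matched, all but Tdh. Capitals mark matches on either strand to any of 6 motifs: paired CP2 sites (CCAGNNNNNNCCAG), the amino acid response core bound by ATF4 (TGATGNAA), the E-box (CACGTG), the STAT element (TTCNNNGAA), the CCAAT box (CCAAT) and the GC box (GGGCGG). No match to 1 of these motifs overlapped a match to another.
Amt, chr9:108296655-108296954, plus strand: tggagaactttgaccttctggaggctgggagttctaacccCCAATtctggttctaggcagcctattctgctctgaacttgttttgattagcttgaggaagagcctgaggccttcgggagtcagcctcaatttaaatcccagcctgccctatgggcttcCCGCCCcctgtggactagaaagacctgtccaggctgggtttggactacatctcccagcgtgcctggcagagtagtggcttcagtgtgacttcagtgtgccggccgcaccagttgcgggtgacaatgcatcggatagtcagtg
Gcat, chr15:79030624-79030923, plus strand: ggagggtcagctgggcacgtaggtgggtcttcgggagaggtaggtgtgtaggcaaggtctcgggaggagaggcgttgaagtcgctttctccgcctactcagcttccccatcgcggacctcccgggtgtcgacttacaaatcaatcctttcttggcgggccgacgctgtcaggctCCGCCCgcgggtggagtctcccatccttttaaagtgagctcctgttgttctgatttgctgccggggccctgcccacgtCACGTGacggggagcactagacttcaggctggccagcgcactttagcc
Gldc, chr19:30175392-30175691, minus strand: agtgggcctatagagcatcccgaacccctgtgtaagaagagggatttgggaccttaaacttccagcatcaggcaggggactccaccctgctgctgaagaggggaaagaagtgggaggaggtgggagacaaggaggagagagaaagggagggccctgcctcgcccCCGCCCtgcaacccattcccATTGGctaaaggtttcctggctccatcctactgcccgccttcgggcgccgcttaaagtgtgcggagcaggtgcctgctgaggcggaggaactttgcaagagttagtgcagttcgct
Shmt2, chr10:127522395-127522694, minus strand: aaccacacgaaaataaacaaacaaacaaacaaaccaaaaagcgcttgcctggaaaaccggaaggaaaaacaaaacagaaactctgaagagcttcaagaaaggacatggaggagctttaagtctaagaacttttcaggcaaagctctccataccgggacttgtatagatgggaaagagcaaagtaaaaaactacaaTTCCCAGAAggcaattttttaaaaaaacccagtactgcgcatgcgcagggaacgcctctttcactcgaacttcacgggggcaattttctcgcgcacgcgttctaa
None of the 6 matched promoters held the paired CP2 motif, which 3.44% of all 32851 promoters of this length held, or the amino acid response core, which 3.97% held. An E-box lay at position 3 after the start of Gcat (7.15% of all promoters held one), and a STAT element at position -55 of Shmt2 (8.3%). GC boxes were in 5 of the 6 promoters (35.7% of all) and CCAAT boxes in 4 of the 6 (37.4%). The Shmt2 promoter was the poorest in G and C of the 6, at 42.7%, and held 13 CpG dinucleotides, whereas Gcat had 61.3% and 21, Gldc 59% and 10, and Amt 54.7% and 7, beside a median of 52.7% and 7 over all promoters. A match is a description of letters, and its absence from this window says nothing of where a factor binds.

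Tdh was the most abundant of the 7 transcripts in every group. Its single entry (NM_021480; mm9, chromosome 14, 64111184 to 64127929) had 139.2, 125.1, 132.8 and 155.8 FPKM in the knockout, 168, 150.1, 159.3 and 165.2 FPKM in wild type in 2i, and 101.1, 142.9, 109.2 and 131.3 FPKM in wild type in FBS. Knockout replicate 4 lay above wild type in 2i replicate 2, so these groups overlapped, and 3 of 4 knockout libraries lay below all wild-type libraries in 2i. The means were 138.2 ± 13.06 in the knockout, 160.6 ± 7.928 in wild type in 2i and 121.1 ± 19.33 in FBS (SD, n = 4 each), which placed Tdh 398th, 333rd and 484th by mean level among the 12329 genes. The knockout difference did not pass (log2 change -0.22, SE 0.10, 95% interval -0.43 to -0.00, limma adjusted p = 0.0886). It passed with only the 8 libraries of the comparison in the fit (limma adjusted p = 0.0256), with array weights (0.0191) and without knockout replicate 4 (0.0474), and the adjusted p ranged from 0.0191 to 0.214 over 27 alternatives.

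Gcat, the enzyme that takes over the product of Tdh, fell in the knockout. It had 29.94, 30.52, 27.53 and 29.77 FPKM in the knockout, 44.28, 44.02, 43.96 and 47.22 FPKM in wild type in 2i and 25.87, 23.73, 27.46 and 25.85 FPKM in FBS. No library of a group overlapped with another group, and the knockout kept 65.6% of the wild-type mean (log2 change -0.59, SE 0.05, limma adjusted p = 2.57e-06). The table lists 2 RefSeq transcripts of Gcat on chromosome 15 of mm9, and both were lower in every knockout library. NM_013847 (78861304 to 78868786) averaged 20.45 ± 0.7745 FPKM in the knockout and 31.29 ± 2.3 in wild type in 2i, and the longer NM_001161712 (78861304 to 78872961) averaged 8.991 ± 1.607 and 13.58 ± 1.451 FPKM in the same groups (SD, n = 4 each). The shorter entry held 69.58% ± 4.392 of the Gcat level in the knockout, 69.69% ± 3.599 in wild type in 2i and 78.34% ± 6.34 in FBS (SD, n = 4 each).

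Amt carried the largest log2 change of the 7 in the knockout. Its levels were 47.32, 46.62, 48.29 and 45.13 FPKM in the knockout, 79.68, 81.36, 76.21 and 84.02 FPKM in wild type in 2i and 34.49, 36.64, 34.87 and 34.42 FPKM in FBS. The standard deviation of a group was at most 4.07% of its mean, and the groups did not overlap. Amt in the knockout was at 58.3% of its wild-type mean, with 46.84 ± 1.333 FPKM in the knockout and 80.32 ± 3.272 in wild type in 2i (NM_001013814; chromosome 9, 108199253 to 108203928; log2 change -0.76, SE 0.04, limma adjusted p = 5.34e-08). In absolute log2 change this was larger than in 93.76% of all genes tested.

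Gldc, which carries out the decarboxylation, went the other way from Amt. It had 44.3, 36.12, 35.4 and 39.74 FPKM in the knockout, 24.52, 17.06, 33.2 and 30.58 FPKM in wild type in 2i and 93.95, 98.36, 100.1 and 95.1 FPKM in FBS. Wild type in 2i varied most, with replicate 2 low and replicate 3 close to the knockout. The knockout mean was 1.48-fold the wild-type mean, at 38.89 ± 4.075 FPKM in the knockout and 26.34 ± 7.175 in wild type in 2i (NM_138595; chromosome 19, 30172931 to 30249931; log2 change 0.58, SE 0.15, limma adjusted p = 0.00853). Its adjusted p stayed between 0.000454 and 0.029 over the 27 alternatives.

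Gcsh, the carrier protein between Gldc and Amt, did not pass. It had 45.01, 42.67, 52.09 and 50.55 FPKM in the knockout, 48.4, 43.1, 56 and 50.14 FPKM in wild type in 2i and 63.2, 61.33, 58.44 and 68.52 FPKM in FBS. The knockout and wild-type libraries in 2i ran through each other (NM_026572; chromosome 8, 119505728 to 119517349; log2 change -0.05, SE 0.08, 95% interval -0.23 to 0.13, limma adjusted p = 0.634). The sign of this small difference turned to 0.01 without wild type in 2i replicate 3. Dld, the remaining protein of the system and shared with other dehydrogenase complexes, had 33.67 ± 1.026 FPKM in the knockout, 36.25 ± 0.3233 in wild type in 2i and 42.04 ± 1.204 in FBS (SD, n = 4). It was called as lower in the knockout (log2 change -0.10, SE 0.04, limma adjusted p = 0.0326). Without wild type in 2i replicate 1, 2 or 4 the adjusted p of Dld was 0.0803, 0.0531 and 0.0594, without knockout replicate 3 or 4 it was 0.077 and 0.0985, and it was 0.0735 after quantile normalization, 0.0932 as TPM and 0.0542 without the intensity trend.

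With Gldc higher and Amt lower in the knockout, the make-up of the glycine cleavage transcripts differed between groups. Of the summed FPKM of Gldc, Amt and Gcsh, Gldc made up 26.07% to 32.42% in the knockout, 12.05% to 20.07% in wild type in 2i and 48.02% to 51.76% in FBS. Amt made up 33.32% to 37.17% in the knockout, 46.07% to 57.49% in wild type in 2i and 17.38% to 18.66% in FBS. The plain ratio of Gldc to Amt was 0.8311 ± 0.09354 in the knockout, 0.3292 ± 0.09537 in wild type in 2i and 2.76 ± 0.08052 in FBS (SD, n = 4 each), and the libraries of the 3 groups did not overlap. These shares were chosen after the values were seen, so they are given as a description with no test. The summed FPKM of the 3 genes was 133.3 ± 5.296 in the knockout, 156.1 ± 11.34 in wild type in 2i and 194.9 ± 2.871 in FBS.

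**Figure D2:**
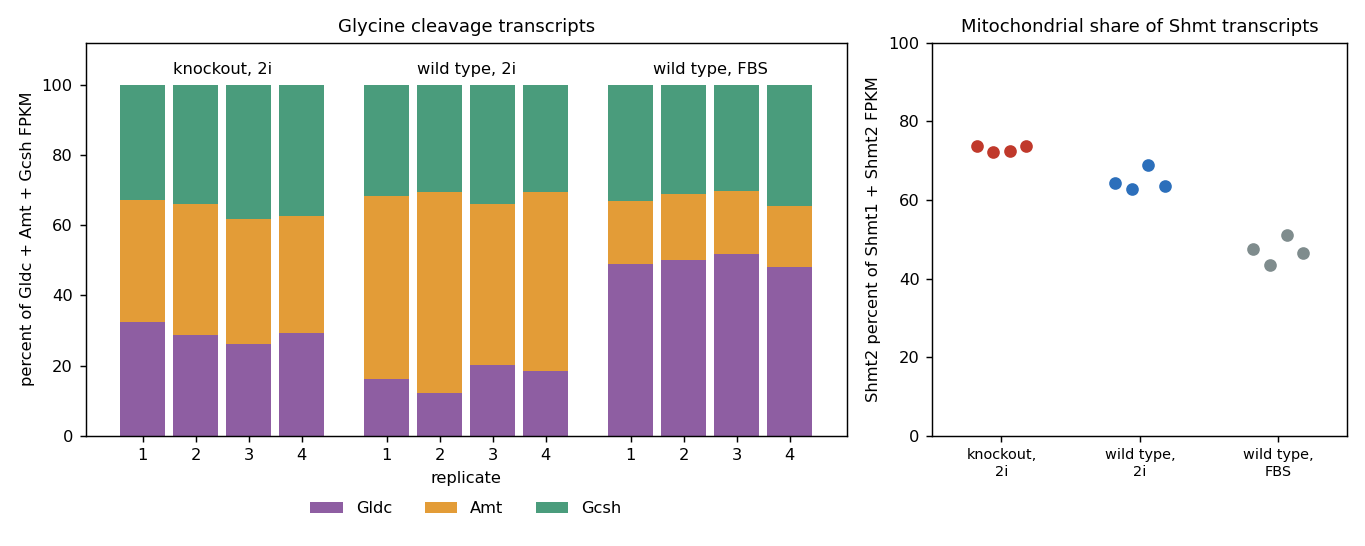
Left, share of Gldc, Amt and Gcsh in their summed FPKM for each library as stacked bars; right, Shmt2 as a percent of the summed FPKM of Shmt1 and Shmt2, 1 point per library, with knockout in 2i (red), wild type in 2i (blue) and wild type in FBS (grey). Amt is the largest part in wild type in 2i and Gldc in FBS, and the Shmt2 share is 72.13% to 73.8% in the knockout, 62.72% to 68.9% in wild type in 2i and 43.49% to 51.09% in FBS.

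Of the serine hydroxymethyltransferases, Shmt2 rose in the knockout. It had 119.6, 103.7, 113.4 and 118.4 FPKM in the knockout, 80.96, 71.63, 101.4 and 78.65 FPKM in wild type in 2i and 54.89, 53.84, 59.29 and 61.08 FPKM in FBS. Wild type in 2i replicate 3 stood above the other 3 libraries of its group and just below the lowest knockout library. The knockout mean was 1.37-fold the wild-type mean (log2 change 0.46, SE 0.09, limma adjusted p = 0.00134). Both RefSeq entries of Shmt2 (chromosome 10, 126954179 to 126959500) were higher in every knockout library, NM_028230 at 84.38 ± 7.587 FPKM in the knockout and 59.41 ± 10.68 in wild type in 2i, and NM_001252316 at 29.4 ± 1.465 and 23.76 ± 2.272 FPKM in the same groups (SD, n = 4 each). For NM_028230 the gap was narrow, with 74.54 FPKM in the lowest knockout library and 74.3 in the highest wild-type library in 2i.

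Shmt1 did not pass. It had 42.73, 40.05, 42.89 and 42.04 FPKM in the knockout, 45.01, 42.58, 45.79 and 44.9 FPKM in wild type in 2i and 60.57, 69.97, 56.76 and 70.53 FPKM in FBS. The groups in 2i overlapped (NM_009171; chromosome 11, 60602399 to 60624767; log2 change -0.09, SE 0.06, 95% interval -0.22 to 0.05, limma adjusted p = 0.292). The interval allows a fall of at most 0.22 and a rise of at most 0.05 on the log2 scale.

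The mitochondrial to cytosolic Shmt ratio within a library was higher in the knockout. The log2 of (Shmt2 + 1) over (Shmt1 + 1) was 1.464, 1.35, 1.382 and 1.472 in the knockout, 0.8331, 0.737, 1.13 and 0.7953 in wild type in 2i and -0.1396, -0.3718, 0.06173 and -0.2043 in FBS. The groups did not overlap, and the difference of means was 0.5431 for knockout minus wild type in 2i, and 1.037 for 2i minus FBS in wild type. The same log2 ratio of Tdh to Gcat, the ratio between the steps of threonine breakdown, averaged 2.19 ± 0.1448 in the knockout, 1.816 ± 0.06612 in wild type in 2i and 2.18 ± 0.2948 in FBS (SD, n = 4 each), again with no overlap of the wild-type libraries in 2i with either other group. Its difference was 0.3735 for knockout minus wild type in 2i and -0.3637 for 2i minus FBS. In all 4 of these ratio tests the exact two-sided permutation p was 0.0286, the smallest that 70 splits allow. Adjusted over the 4 tests this exact permutation p was 0.0286 too. For Shmt2 to Shmt1 between the media the outcome was fixed by the gene levels. Every wild-type library in 2i was above all FBS libraries for Shmt2 and below all for Shmt1. That test thus adds nothing to the calls of these genes. The ratio tests share libraries and were chosen with earlier results of these data known. With only the highest entry of each gene, the Tdh to Gcat difference between 2i and FBS was -0.20 (exact permutation p = 0.343) and so did not pass.

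The medium was set against the same genes in wild-type cells, 2i minus FBS. All 7 genes were called, against 72.4% of all genes tested, with 4 higher in 2i (37.1% of all genes tested) and 3 lower (35.3%). The groups did not overlap for any of the 7, as was so for 62.5% of all genes tested. The median log2 difference of the 7 was 0.42, beside 0.01 over all genes. This comparison shares the wild-type libraries in 2i with the knockout comparison, so the values of both are not independent.

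Amt, Gcat, Shmt2 and Tdh were higher in 2i. The Amt mean in 2i was 2.29-fold that in FBS (log2 difference 1.17, SE 0.04, limma adjusted p = 1.48e-10), and the Gcat mean was 1.74-fold (0.78, SE 0.05, limma adjusted p = 2.74e-08). Shmt2 averaged 83.17 ± 12.8 FPKM in 2i and 57.28 ± 3.466 in FBS (SD, n = 4 each; log2 difference 0.52, SE 0.09, limma adjusted p = 0.00017). Tdh was 1.33-fold higher in 2i (0.42, SE 0.10, limma adjusted p = 0.002).

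Gldc, Shmt1 and Gcsh were lower in 2i. Gldc in 2i was at 27.2% of its FBS mean (log2 difference -1.88, SE 0.15, limma adjusted p = 2.35e-07), the largest absolute difference of the 7 and larger than in 96.99% of all genes tested. In FBS Gldc varied little, with a standard deviation of 2.95% of its mean. Shmt1 averaged 44.57 ± 1.386 FPKM in 2i and 64.46 ± 6.868 in FBS (log2 difference -0.52, SE 0.06, limma adjusted p = 9.86e-06), and Gcsh 49.41 ± 5.317 in 2i and 62.87 ± 4.243 in FBS (SD, n = 4 each; -0.35, SE 0.08, limma adjusted p = 0.00213). The 3 genes of the glycine cleavage system therefore differed in both directions between the media.

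**Figure D3:**
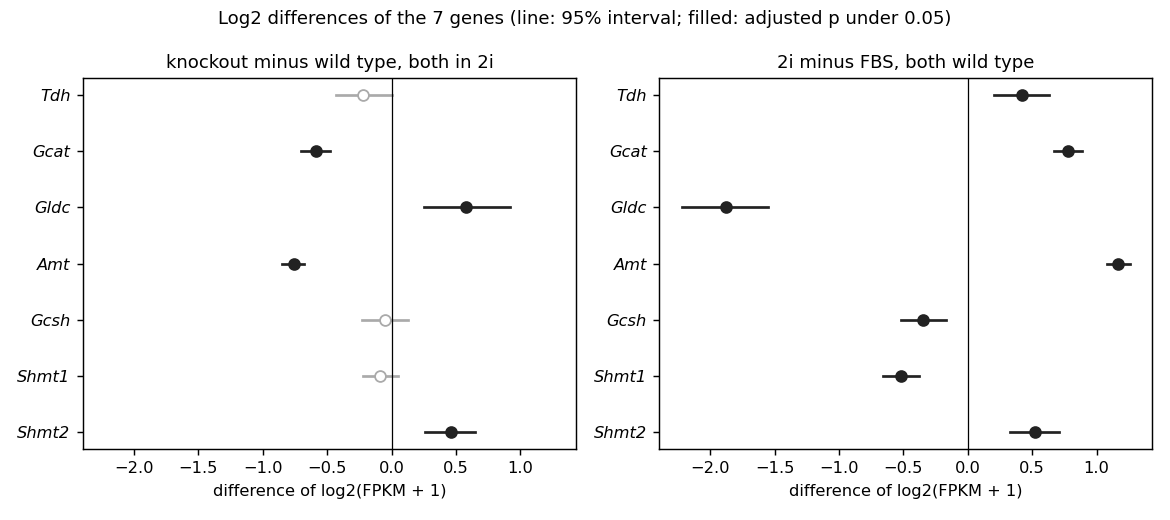
Log2 differences of the 7 genes, knockout minus wild type in 2i (left) and wild type in 2i minus FBS (right); points are limma estimates on log2(FPKM + 1), lines 95% intervals, filled points passed an adjusted p of 0.05. Amt is at -0.76 on the left and 1.17 on the right, and Gldc at 0.58 and -1.88.

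Across the 3 groups the genes followed 4 orders of level. Gcat and Amt ran, from low to high, from FBS through the knockout to wild type in 2i, and neighbouring groups differed (knockout minus FBS: Gcat 0.19, SE 0.05, limma adjusted p = 0.00488; Amt 0.41, SE 0.04, limma adjusted p = 2e-06). With only its highest entry Gcat had a knockout minus FBS difference of 0.02 (limma adjusted p = 0.774), so those neighbours then did not differ. Tdh had the same order, but neither the knockout and wild type in 2i nor the knockout and FBS differed beyond their spread (0.20, SE 0.10, limma adjusted p = 0.0926 for the second). The second of these passed without wild type in FBS replicate 2 (0.28, limma adjusted p = 0.0172) and after quantile normalization (0.24, limma adjusted p = 0.0408). Gldc ran the opposite way, from wild type in 2i through the knockout to FBS, with every neighbour different (knockout minus FBS -1.30, SE 0.15, limma adjusted p = 9.52e-06). Gcsh and Shmt1 were highest in FBS, and their 2 groups in 2i did not differ beyond their spread. Shmt2 ran from FBS through wild type in 2i to the knockout, whose mean was 1.99-fold that in FBS. In the knockout minus FBS comparison 6 of 7 genes were called, 3 higher and 3 lower, beside 66.6% of all genes tested (34.7% higher and 31.9% lower).

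The summed level of the 7 genes was 456.7 ± 24.37 FPKM in the knockout, 489.3 ± 28.26 in wild type in 2i and 463.4 ± 27.4 in FBS (SD, n = 4 each), and the ranges overlapped. Tdh made up 29.35% to 32.36% of it in the knockout, 30.87% to 34.23% in wild type in 2i and 23.29% to 29.35% in FBS. Shmt2 made up 24.41% to 25.55% in the knockout, 15.71% to 19.66% in wild type in 2i and 11.06% to 13.29% in FBS. Gldc made up 7.826% to 9.463% in the knockout, 3.792% to 6.436% in wild type in 2i and 19.53% to 22.44% in FBS. These sums and shares are descriptions with no test.

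Amt and Gldc, the 2 genes with a called log2 difference of 1 or more in size in either comparison, were set beside all other genes tested to find those with the most similar level pattern. Likeness was the mean absolute difference of log2(FPKM + 1) over the 12 libraries, after each gene was centred on its own mean, so a gene with the same pattern has 0. For Amt the nearest were Sec23a (a COPII coat subunit, 0.06), Tmem229b (0.06), the tubulin gene Tubb2a (0.06), the phosphatidylinositol kinase gene Pip4k2c (0.06) and Spns3 (0.07), with a median of 0.46 over all genes. Tubb2a, for example, averaged 59.77 FPKM in the knockout, 101.5 in wild type in 2i and 42.57 in FBS. Spns3 averaged only 0.3907, 1.384 and 0.03959 FPKM in the same order. At such low levels the added 1 shrinks differences, so likeness on this scale does not mean equal folds. For Gldc they were the tight junction gene Cgn (0.13), the secreted Wnt modulator Sfrp2 (0.14), the calponin gene Cnn1 (0.15), Rragb (a Rag GTPase, 0.15) and Dtna (0.16), with a median of 0.72 over all genes. Cgn averaged 6.752 FPKM in the knockout, 4.994 in wild type in 2i and 21.11 in FBS. Low levels apply here too, with Cnn1 at 1.003, 0.3947 and 3.986 FPKM and Dtna at 0.6009, 0.2019 and 2.705 in the same order.

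Next, the 7 genes were set beside 10 lists of connected pathways, with 77 tested genes of 88 listed. In the knockout 15 of the 77 were called as higher and 13 as lower (24% and 21.4% of all genes tested), with a median log2 change of 0.02. Serine synthesis, which feeds the Shmt reaction, had 1 of 3 genes higher: Psat1, the phosphoserine aminotransferase, had 206.3 ± 8.898 FPKM in the knockout and 167.3 ± 18.91 in wild type in 2i (log2 change 0.31, limma adjusted p = 0.00543). Phgdh, its entry enzyme, had 35.56 ± 2.044 and 30.08 ± 6.541 FPKM in the same groups (limma adjusted p = 0.0871; 0.00163 without wild type in 2i replicate 3 and 0.00546 with array weights). Of 8 genes for lipoate and iron-sulfur supply to the glycine cleavage carrier, with Dld, 1 was higher and 4 lower. Among them the assembly proteins Glrx5 and Isca2 fell (log2 change -0.26 and -0.32, limma adjusted p = 0.0026 and 0.00134), while Nfu1 had 35.02 ± 1.757 FPKM in the knockout and 42.8 ± 6.912 in wild type in 2i (limma adjusted p = 0.0513; 0.00221 without wild type in 2i replicate 3 and 0.0361 without wild type in FBS replicate 3). Nfu1 also passed with array weights (limma adjusted p = 0.00322), the replicate number as a block (0.0128), median-ratio scaling (0.0353) and only the highest entry per symbol (0.0228).

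Downstream of the Shmt and glycine cleavage steps, the mitochondrial folate cycle had 0 of 6 genes higher and 1 lower in the knockout. The gene that fell was Mthfd2, the next enzyme for the carbon unit made by Shmt2, at 83.57 ± 4.776 FPKM in the knockout and 100.8 ± 3.859 in wild type in 2i (SD, n = 4 each; log2 change -0.27, limma adjusted p = 0.00156). Mthfd1l, which yields formate, had 24.31 ± 1.446 FPKM in the knockout and 24.67 ± 2.892 in wild type in 2i (0.883). Of 10 cytosolic folate genes 4 were higher and 2 lower, and the largest change was in Aldh1l1, a folate dehydrogenase, at 9.447 ± 0.5316 FPKM in the knockout and 17.86 ± 4.023 in wild type in 2i (log2 change -0.83, limma adjusted p = 0.000239). Mthfs and Mthfd1 rose by smaller amounts (log2 change 0.36 and 0.18, limma adjusted p = 0.00446 and 0.0143), and Mthfd1 had 0.0521 with median-ratio scaling. Folr1, a folate receptor, had 58.81 ± 3.593 FPKM in the knockout and 57.02 ± 7.342 in wild type in 2i (limma adjusted p = 0.676).

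Users of glycine and one-carbon units were covered by 3 of the lists. In the methionine and SAM (S-adenosylmethionine) list 0 of 13 were higher and 3 lower, led by the methionine synthase reductase Mtrr (log2 change -0.36, limma adjusted p = 0.000321) and Cth, which makes cysteine, at 96.57 ± 15.77 FPKM in the knockout and 142.8 ± 9.608 in wild type in 2i (-0.57, limma adjusted p = 0.00133). Srm, a spermidine synthase, had 118.2 ± 2.314 FPKM in the knockout and 109.7 ± 6.615 in wild type in 2i (limma adjusted p = 0.257, and 0.0365 to 0.49 over 27 alternatives). Purine synthesis, which builds in glycine, had 3 of 10 higher and 0 lower, with Pfas and Gart rising by 0.21 and 0.14 on the log2 scale (limma adjusted p = 0.00531 and 0.00835). Paics had 216.1 ± 5.355 FPKM in the knockout and 225.5 ± 9.111 in wild type in 2i (limma adjusted p = 0.215, and 0.0265 to 0.502 over 27 alternatives). In glutathione synthesis 1 of 4 was lower: Gss, which adds glycine, had 15.46 ± 1.52 FPKM in the knockout and 25.16 ± 1.496 in wild type in 2i (log2 change -0.67, limma adjusted p = 6.14e-05), and the reductase Gsr had 53.07 ± 2.767 and 59.14 ± 6.366 FPKM in the same groups (0.138). Of 10 other enzymes of threonine, serine and glycine 3 were higher, among them the threonine synthase-like gene Thnsl2 (2.426 ± 0.4812 FPKM in the knockout and 0.8741 ± 0.1912 in wild type in 2i, limma adjusted p = 0.000107) and Pipox, a sarcosine oxidase (20.92 ± 3.03 and 13.04 ± 1.372 FPKM, limma adjusted p = 0.00125). Thnsl2 had 0.6874 to 1.057 FPKM in wild type in 2i and passed the filter through the groups where it is higher. The filter thus partly shapes its call. The threonine aldolase gene Tha1 and the serine dehydratase gene Sds, other routes of threonine and serine breakdown, averaged at most 0.2424 FPKM in any group and were not tested.

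Supply and use by translation moved in single genes. Of 8 amino acid transporters 1 was higher and 2 lower in the knockout: Slc38a2 rose to 67.65 ± 5.058 FPKM in the knockout, against 47.8 ± 1.603 in wild type in 2i (log2 change 0.49, limma adjusted p = 0.000295), while Slc1a5, a carrier of neutral amino acids that include threonine, and Slc3a2 fell (-0.37 and -0.24, limma adjusted p = 0.00504 and 0.00993). Slc7a5 had 111.1 ± 5.172 FPKM in the knockout and 119.4 ± 1.758 in wild type in 2i (0.149). Of 5 tRNA synthetase genes Tars2 and Sars rose (0.26 and 0.31, limma adjusted p = 0.000609 and 0.00161), and Gars, for glycine, had 241.9 ± 13.9 FPKM in the knockout and 258.9 ± 14.8 in wild type in 2i (0.159). The calls of Lipt1, Alas1, Cbs and Adsl in the knockout did not hold when single libraries were left out, with the highest adjusted p from 0.0743 (Alas1, without wild type in 2i replicate 1) to 0.0808 (Adsl, without wild type in 2i replicate 4). Other alternatives gave higher limma adjusted p for Cbs (0.197 with only the highest entry per symbol) and Lipt1 (0.0902 after quantile normalization).

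**Figure D4:**
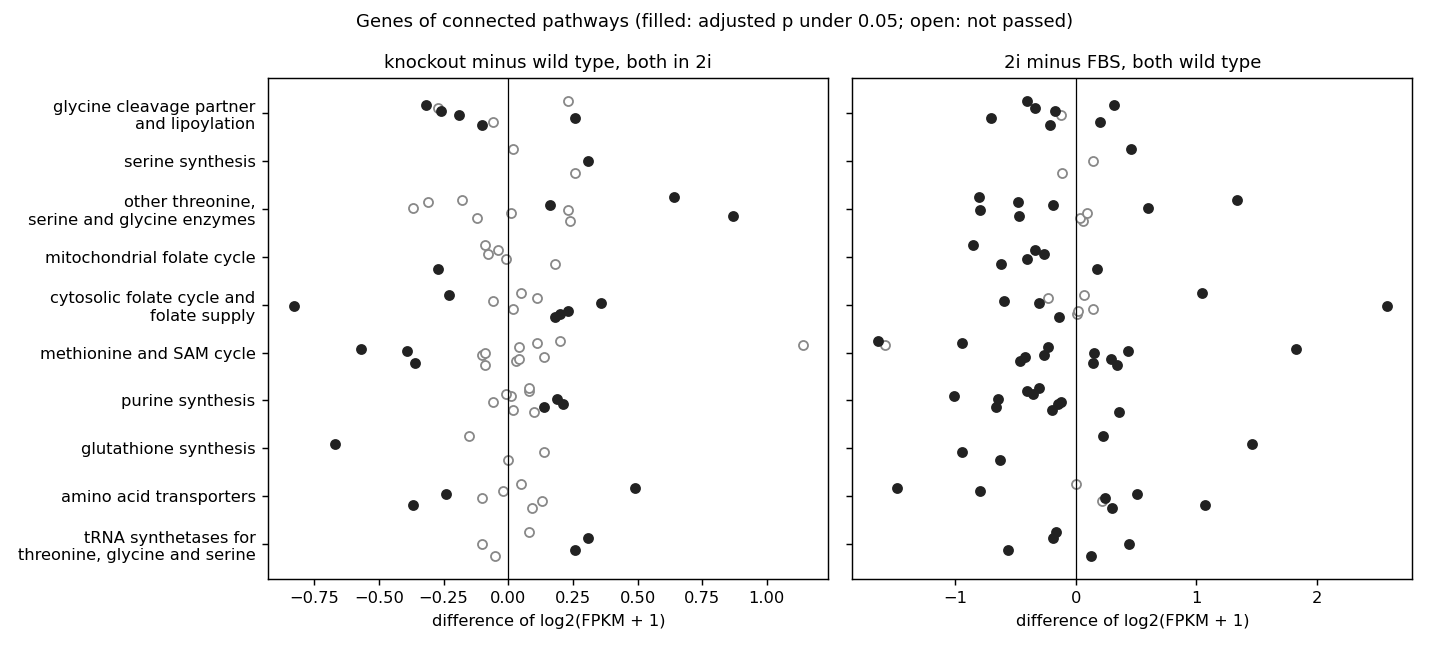
Log2 differences of the tested genes of 10 connected pathway lists, knockout minus wild type in 2i (left) and wild type in 2i minus FBS (right); each point is a gene, filled where the limma adjusted p was under 0.05. The left panel shows 15 filled points right of 0 and 13 left of it, the right panel 23 right of 0 and 40 left.

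Between the media, 23 of the 77 genes were higher in 2i and 40 lower (37.1% and 35.3% of all genes tested), with a median log2 difference of -0.16. Purine synthesis genes were lower in 2i in 9 of 10 cases and higher in 1, with Atic, its last step, at 52.87 ± 2.73 FPKM in 2i and 107.8 ± 11.75 in FBS (log2 difference -1.01, limma adjusted p = 3.98e-08). Mitochondrial folate genes were lower in 5 of 6 cases, among them the serine carrier Sfxn1 (18.26 ± 0.8212 FPKM in 2i and 33.81 ± 1.193 in FBS, limma adjusted p = 6.88e-09), and Mthfd2 was the 1 that was higher (0.18, limma adjusted p = 0.00941). Among cytosolic folate genes 2 were higher and 3 lower of 10, with Aldh1l1 at 17.86 ± 4.023 FPKM in 2i and 2.101 ± 0.09665 in FBS (log2 difference 2.58, limma adjusted p = 2.72e-09) and Folr1 at 57.02 ± 7.342 and 26.92 ± 2.827 FPKM in the same groups. The methionine and SAM list had 6 higher and 6 lower of 13, with Cth 1.83 higher on the log2 scale in 2i (limma adjusted p = 1.73e-08) and the polyamine synthases Sms and Srm lower (-1.64 and -0.94, limma adjusted p = 4.47e-09 and 1.76e-07). Of 4 glutathione genes Gss and Gsr were higher in 2i (1.46 and 0.23, limma adjusted p = 1.23e-08 and 0.0181) and Gclc and Gclm lower (-0.63 and -0.94, limma adjusted p = 4.5e-05 and 1.31e-06). The limma adjusted p of Gsr ranged from 0.00596 to 0.0576 over 27 alternatives, so its call did not hold in all of them. Of the transporters 4 were higher and 2 lower of 8, with Slc1a5 at 108.4 ± 3.53 FPKM in 2i and 51.51 ± 8.047 in FBS and Slc38a2 at 47.8 ± 1.603 and 135.6 ± 15.2 FPKM in the same groups (limma adjusted p = 2.81e-07 and 4.29e-09). The remaining lists had 2 higher and 5 lower of 8 for lipoate and iron-sulfur supply, 1 higher and 0 lower of 3 for serine synthesis, 2 higher and 5 lower of 10 for other threonine, serine and glycine enzymes, and 2 higher and 3 lower of 5 for the tRNA synthetases.

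Further genes of these lists that differed between the media were as follows. The iron-sulfur gene Isca2 was higher in 2i (log2 difference 0.32), whereas Dld, the lipoyltransferase gene Lipt1 and Iba57 were lower (-0.21, -0.70 and -0.40, limma adjusted p at most 0.00135). Psph, the last enzyme of serine synthesis, was higher in 2i (0.46, limma adjusted p = 0.00279). Of the genes around glycine, Pipox had 13.04 ± 1.372 FPKM in 2i and 23.66 ± 4.1 in FBS (limma adjusted p = 6.64e-05). The dimethylglycine dehydrogenase gene Dmgdh had 1.801 ± 0.7588 FPKM in 2i and 0.07663 ± 0.02254 in FBS. The creatine synthesis gene Gatm had 0.3644 ± 0.1058 and 1.371 ± 0.2807 FPKM in the same groups. Dmgdh reached 1 FPKM only in 2i and Gatm only in FBS, so each passed the filter only where it is high. Both are counted as called in their list, but are given here as levels only. In purine synthesis Gart, Adsl and Gmps were lower in 2i (-0.66, -0.64 and -0.40, limma adjusted p = 1.18e-08, 1.34e-06 and 7.57e-06), as was the folate-retaining Fpgs (-0.59, limma adjusted p = 2.91e-06). Ahcy, which clears S-adenosylhomocysteine, was lower in 2i as well (-0.42, limma adjusted p = 1.58e-05). Gars was higher in 2i and Tars2 lower (0.44 and -0.56, limma adjusted p = 9.04e-06 and 1.86e-07).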

How the data were processed

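RNA of 12 mouse ESC libraries was extracted with Trizol and made into libraries with a TruSeq kit, per the labels' protocols. CASAVA 1.8.2, Cufflinks and mm9 are named in the submitters' processing notes; the aligner, the Cufflinks version and any use of strand are not stated in the labels. Deposited by the authors were FPKM values for each RefSeq transcript, a pair of FPKM bounds and a status flag, per the file headers. Read depth is unknown, and no count test was used. For the 7 genes the upper bound lay below the value itself in 52 of 108 entry values, so the bounds were not used as errors. Coordinates of entries are mm9, 1-based.

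Gene symbols were taken from the RefSeq (GRCm38.p6) and GENCODE (vM21) tables and matched 98.82% of 30761 entries. Entries were summed per symbol; 7 genes with a failed entry were left out. Genes reaching 1 FPKM in 4 or more libraries were tested on log2(FPKM + 1) with limma 3.58.1 (R 4.3.3), 1 mean per group over all 12 libraries, eBayes with trend. Ratios were tested with exact two-sided permutations. The fit was also run on simulated data, in which few genes changed and libraries varied independently. Far more genes were called here, so that run does not check this setting. Python 3.11.15 was used for the rest. Without strand, reads of Shmt2 and Ndufa4l2 (8.925 ± 1.057 FPKM in the knockout, 12.03 ± 4.145 in wild type in 2i, 10.84 ± 5.943 in FBS) and of Shmt1 and Smcr8 (13.93 ± 0.7343, 17.42 ± 0.9512 and 13.19 ± 0.3825 in the same order; SD, n = 4), which overlap them on the other strand, cannot be told apart. The same holds for Tdh and the antisense gene Gm17232, for Gldc and the pseudogene Rpl31-ps20, and for Shmt1 and the snoRNA gene Gm24945 (GENCODE).

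The 7 genes, the pathway and marker lists and the tests were chosen with earlier results of these data known. List genes were named by rule: up to 4 per list with the smallest adjusted p among those called in each main comparison, and the highest-expressed one not called in the knockout. The pattern neighbours were the 5 nearest genes. Tha1, Sds and the marker genes stand outside the rule. Not every gene so chosen is described. Alternatives were pseudocounts of 0.1 and 0.01, no filter or 5 FPKM, other scalings, the 8 libraries of a comparison, a replicate block, eBayes without trend or robust, array weights, only the highest entry of a symbol, stricter thresholds, and each library left out in turn. Of the other marker lists, endoderm markers summed to at most 20.66 FPKM in any library, and of 3 tested 2 were higher and 1 lower in the knockout; liver markers summed to at most 0.306.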

Additional observations from a re-analysis of the deposited data

Results flagged for a closer look

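In 13 of 240 groups of 4 libraries, 1 library stood far from the other 3 (Dixon's gap test); chance flags about 1 in 20 such groups. Of the 7 genes, Gcat was highest in wild type in 2i replicate 4, at 47.22 FPKM, with the others between 43.96 and 44.28. The summed FPKM of Gldc, Amt and Gcsh was lowest in knockout replicate 2, at 125.4, with the others between 135.4 and 136.6. The share of Tdh in the 7 genes was highest in knockout replicate 4, at 32.36%, with the others between 29.35% and 29.74%.

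Among the connected genes, the library standing apart was in the knockout for Cbs (replicate 2, 15.19 FPKM), Gart (replicate 3, 103.9 FPKM) and Gmps (replicate 4, 24.66 FPKM). It was in wild type in 2i for Dld (replicate 1, 36.73 FPKM), Sfxn1 (replicate 2, 17.04 FPKM), Lipt1 (replicate 3, 1.146 FPKM), Slc7a5 (replicate 3, 116.7 FPKM) and Gss (replicate 4, 27.39 FPKM). It was in wild type in FBS for Gars (replicate 1, 204 FPKM) and Nfu1 (replicate 3, 46.02 FPKM).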

How the results depend on the processing

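Of the 7 genes, the 4 knockout calls and the 7 calls between the media kept their direction and their side of the threshold under each alternative other than the stricter size threshold. When calls also needed an absolute log2 difference of 0.5, Shmt2 in the knockout (0.46) and Tdh (0.42) and Gcsh (-0.35) between the media were no longer called, 1641 genes were called in the knockout, 4375 between the media and 3426 between knockout and FBS, and 3 of the 7 genes were called between knockout and FBS. That threshold removes smaller differences by its construction. Tdh in the knockout passed with the 8 libraries of the comparison (-0.22), with array weights (-0.26) and without knockout replicate 4; leaving out each library gave -0.28 to -0.17; the cause was not tested. The Gcsh knockout difference was 0.01 without wild type in 2i replicate 3 (left-out range -0.11 to 0.01). Mthfd1l, not called in the knockout, turned to 0.01 after quantile normalization and as TPM, and ranged from -0.09 to 0.04 as libraries were left out, positive without wild type in 2i replicate 1 (0.01), wild type in 2i replicate 3 (0.04) and knockout replicate 2 (0.02). The Tdh to Gcat ratio between the media was -0.20 with the highest entry per symbol. With a library left out, the Shmt2 to Shmt1 difference was 0.5 to 0.63 in the knockout and 0.95 to 1.11 between the media. The Tdh to Gcat difference was then 0.32 to 0.44 in the knockout and -0.45 to -0.24 between the media. With 3 against 4 libraries the smallest two-sided exact permutation p is 0.0571, which cannot pass.

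The replicate numbers were not taken as pairs in the main fit. Same-numbered knockout and wild-type libraries in 2i had correlations of their deviations from group means of 0.0554, 0.258, 0.216 and 0.194. Libraries of unlike number had -0.3 to 0.154, so 0.258, 0.216 and 0.194 lay above all of these. For wild type in 2i and FBS the same-numbered values were 0.0272, 0.119, 0.0266 and 0.186, with at most 0.114 for unlike numbers. For the knockout and FBS they were -0.0252, 0.081, 0.0296 and -0.0295, with at most 0.0968 for unlike numbers. Whether the numbers mark shared batches is not given and was not tested. With the replicate number as a block, 5567 genes were called in the knockout, 8899 between the media and 8260 between knockout and FBS, and no call of the 7 genes changed. Of the other named genes, Nfu1 passed in the knockout under the block (-0.27, limma adjusted p = 0.0128) and Sars2 no longer passed between the media (-0.16, limma adjusted p = 0.0545). For the ratios, a sign-flip test over the 4 pairs cannot go below p = 0.125 and gave that exact permutation value each time. Read depth is unknown, so what it limits could not be measured.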
